A study of Mus musculus with 50 samples.

Results

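The luminal mammary lineage genes Elf5, Elf3, Ehf, Krt8, Krt18, Krt19, Krt7, Gata3, Foxa1 and Kit were followed across 50 mammary gland tumors. These 10 genes were taken by symbol from a table of 37701 genes, by a rule that names them and sets no expression value, drawn up with earlier results of these data known. The tumors arose in female p53R270H/+WAPCre mice, which carry 1 mutant p53 allele that Cre recombinase, under the whey acidic protein promoter, switches on in mammary epithelium. This genotype was shared by every mouse, controls included. From an age of 8 weeks the mice received subcutaneous injections of vehicle (10 tumors, titled untreated in the sample labels), insulin (10), the insulin analogues glargine (10) and X10 (10), or insulin-like growth factor 1 (IGF1, 10). Tumors were taken at 1 cm3, 24 h after the last injection. The study had picked tumors of an epithelial to mesenchymal transition (EMT)-like type, with latency near the median of their group, so the tumors are no random sample of those that formed. The paper reports shorter latency with X10 and IGF1, so age and length of treatment at collection cannot be told apart from treatment. The number in a tumor name such as vehicle_174 is the mouse, and each mouse gave 1 tumor.

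The mammary gland holds an inner luminal layer, which includes the cells that make milk, and an outer basal or myoepithelial layer that contracts. Elf5 drives the milk-secreting alveolar fate of luminal progenitors, Gata3 is needed to form and keep the luminal layer, and Foxa1 works with the estrogen receptor in the hormone-sensing luminal cells. Krt8, Krt18, Krt19 and Krt7 encode keratins of simple epithelium, of which Krt8 and Krt18 pair into 1 filament, and Kit encodes the receptor for stem cell factor, found on luminal progenitors as well as on mast cells.

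Library size, recovered from the steps between RPKM values (reads scaled to library size and to gene length in kilobases), was between 26.7 and 51.9 M reads, with group medians from 35.4 M reads in the X10 group to 44.0 M reads in the vehicle group. Mouse numbers run in blocks by treatment group. If they follow an order of handling, which the labels do not say, its effect cannot be told apart from treatment. The median of Vim, a mesenchymal intermediate filament, was 3812 RPKM, and that of the epithelial adhesion gene Epcam 4.75 RPKM. Vehicle_174 stood apart with the lowest Vim (1094 RPKM) and the highest Epcam (302 RPKM), and vehicle_197 had the lowest Krt8, Krt18, Krt19, Gata3 and Foxa1 of the vehicle tumors. In bulk tumor RNA, fewer cells of a type and less RNA per cell cannot be told apart.

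The upstream sequences of members that moved together across tumors are shown first: the ETS factor genes Elf5 and Elf3, and the keratin pair Krt8 and Krt18. They are from RefSeq on GRCm38.p6, 5′ to 3′ on the strand of the gene, and cover the part of the 250 bases before the start that lies outside annotated exons. For Elf5 the table holds a pair of starts, and the window of the downstream one, inside the gene, is shown, since that of the upstream one lies within annotated exons. Capitals mark GGAA, or TTCC where it is on the other strand, the core to which ETS factors bind.
Elf5 (chr2:103423818-103424061, plus strand): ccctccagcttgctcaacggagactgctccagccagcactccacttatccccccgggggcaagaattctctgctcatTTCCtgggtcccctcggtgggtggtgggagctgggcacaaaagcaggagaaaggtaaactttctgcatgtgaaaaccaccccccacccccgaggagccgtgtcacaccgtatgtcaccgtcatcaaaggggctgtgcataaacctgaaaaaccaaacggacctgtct
Elf3 (chr1:135258569-135258722, minus strand): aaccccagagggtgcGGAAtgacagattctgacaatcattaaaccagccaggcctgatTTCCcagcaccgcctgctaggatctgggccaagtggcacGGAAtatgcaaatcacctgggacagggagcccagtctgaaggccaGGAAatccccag
Krt8 (chr15:102004483-102004592, minus strand): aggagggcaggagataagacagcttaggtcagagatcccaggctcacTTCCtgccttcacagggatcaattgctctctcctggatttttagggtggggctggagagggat
Krt18 (chr15:102027966-102028179, plus strand): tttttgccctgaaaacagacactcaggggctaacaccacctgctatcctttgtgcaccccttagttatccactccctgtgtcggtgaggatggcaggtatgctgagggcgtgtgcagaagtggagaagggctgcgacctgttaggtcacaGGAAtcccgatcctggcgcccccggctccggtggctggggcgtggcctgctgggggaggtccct

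Of the 10 genes, 8 had an entry in the RefSeq promoter table, and Ehf and Krt19 had none. Over the full 250 bases, this core was in the windows of all 8, as it was in 93.4% of the 32851 windows of the table. The longer AGGAAG, on either strand, was in those of Krt8, Krt7 and Kit, against 29.5% of all windows, and every match to it also holds the shorter core. The GATA motif AGATAA, on either strand, was found for Krt8 alone (9.99% of all windows), and the forkhead motif TGTTTAC for Foxa1 alone (3.17% of all windows). In the GENCODE M21 annotation of GRCm38, all 10 are protein-coding genes, and the ranges run from the first to the last base of the gene. Krt8 (chr15:101996698-102004482, minus strand) and Krt18 (chr15:102028180-102032027, plus strand) lie 23.7 kb apart, transcribed away from each other, and Krt7 (chr15:101411043-101430313, plus strand) is on the same chromosome. Ehf (chr2:103263433-103303278, minus strand) and Elf5 (chr2:103411688-103450989, plus strand) lie 108.4 kb apart, and Gata3 (chr2:9857078-9890034, minus strand) is elsewhere on that chromosome. Elf3 is at chr1:135253575-135258568 (minus strand), Krt19 at chr11:100140810-100148665 (minus strand), Foxa1 at chr12:57540628-57546916 (minus strand) and Kit at chr5:75574916-75656722 (plus strand).

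Krt8 was the most abundant of the 10, with a median of 173.9 RPKM over the 50 tumors, followed by Krt18 (54.6 RPKM), Gata3 (43.0 RPKM) and Kit (21.4 RPKM). Krt19 (7.80 RPKM), Krt7 (6.92 RPKM), Ehf (2.81 RPKM) and Elf5 (1.58 RPKM) were lower, and Elf3 (0.292 RPKM) and Foxa1 (0.116 RPKM) were the lowest. Foxa1 was covered by a median of 15 reads, with under 10 reads in 18 tumors, and Elf3 by a median of 20.5 reads, with under 10 in 17 tumors. Elf5 had a median of 57 reads, with under 10 in 11 tumors. Kit, Gata3 and Krt7 were divided by short lengths in the deposited table, of 745, 509 and 666 bases, where their longest annotated coding transcripts have 5241, 3215 and 4094 bases. On the scale of the longest coding transcript Gata3 had a median of 6.81 RPKM, Kit 3.05 RPKM and Krt7 1.12 RPKM, and Krt19 (4.07 RPKM) then stood above Kit. Between neighbours in the deposited order, the difference within a tumor was larger than its SD over tumors for Krt8 over Krt18, higher in 47 of 50 tumors, and for Elf5 over Elf3, higher in 44 of 50. The other 7 neighbouring pairs did not differ beyond that spread, Krt19 being above Krt7 in 22 of 50 tumors. On the rescaled levels Krt8 over Krt18 and Krt18 over Gata3 were the pairs beyond the spread. The RPKM ratio of 1 gene between tumors does not depend on the length, whereas on the log2(RPKM + 0.5) scale another length acts as another pseudocount would.

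**Figure D1:**
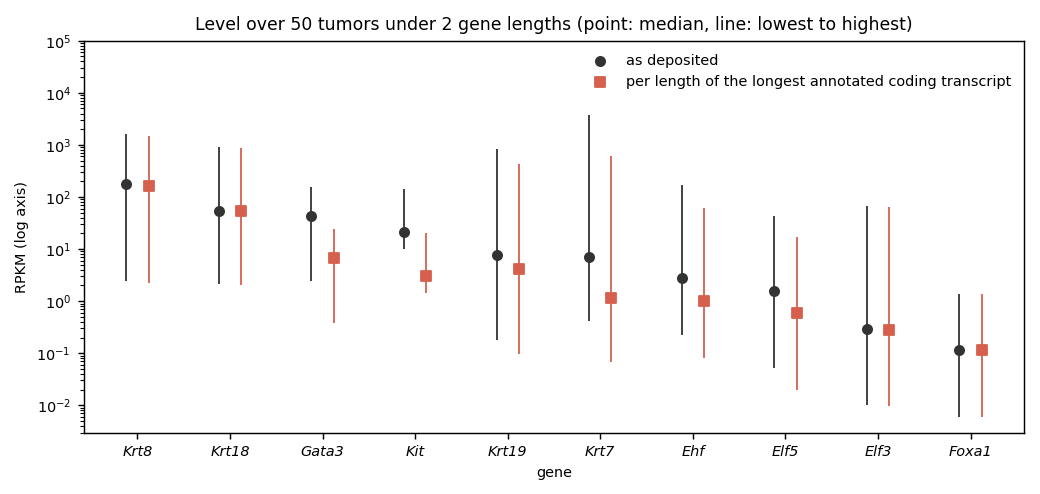
Levels of the 10 genes over 50 tumors in RPKM on a log axis, with the median as a point and a line from the lowest to the highest tumor, as deposited (black) and per length of the longest annotated coding transcript (red). Krt8 and Krt18 are highest on both scales, and the medians of Gata3 (43.0 to 6.81 RPKM) and Kit (21.4 to 3.05 RPKM) move most.

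Tumors differed more in the 9 tested members than in most other genes. Foxa1, scarce throughout, had an SD of 0.4345 on the log2(RPKM + 0.5) scale, above that of 53.2% of the tested genes. Its median of 0.116 RPKM lies under the added 0.5, which narrows its SD, and between the lowest and highest tumor it ranged 224-fold. Between the lowest and highest tumor Krt7 ranged 9072-fold, Elf3 6670-fold and Krt19 4539-fold, and Kit, the least variable by this measure, 14.0-fold. The SD of Krt7 over tumors was 2.98 on the log2(RPKM + 0.5) scale, above that of 99.94% of the tested genes, and the other tested members were above 98.1% of them or more, except Gata3 (91.5%) and Kit (83.6%). Group means accounted for 31.6% of the variance of Krt7, 24.6% for Krt19, 20.8% for Elf5 and 5.76% for Krt8. A few tumors carried much of the signal. The 5 highest tumors held 86.4% of the summed Krt7 RPKM, 77.6% of that of Elf3 and 76.4% of that of Krt19, against 21.1% for Gata3. Vehicle_182 was among the 5 highest tumors for 7 of the 10 genes, vehicle_174 for 6, and vehicle_195 and X10_111 for 5 each.

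**Figure D2:**
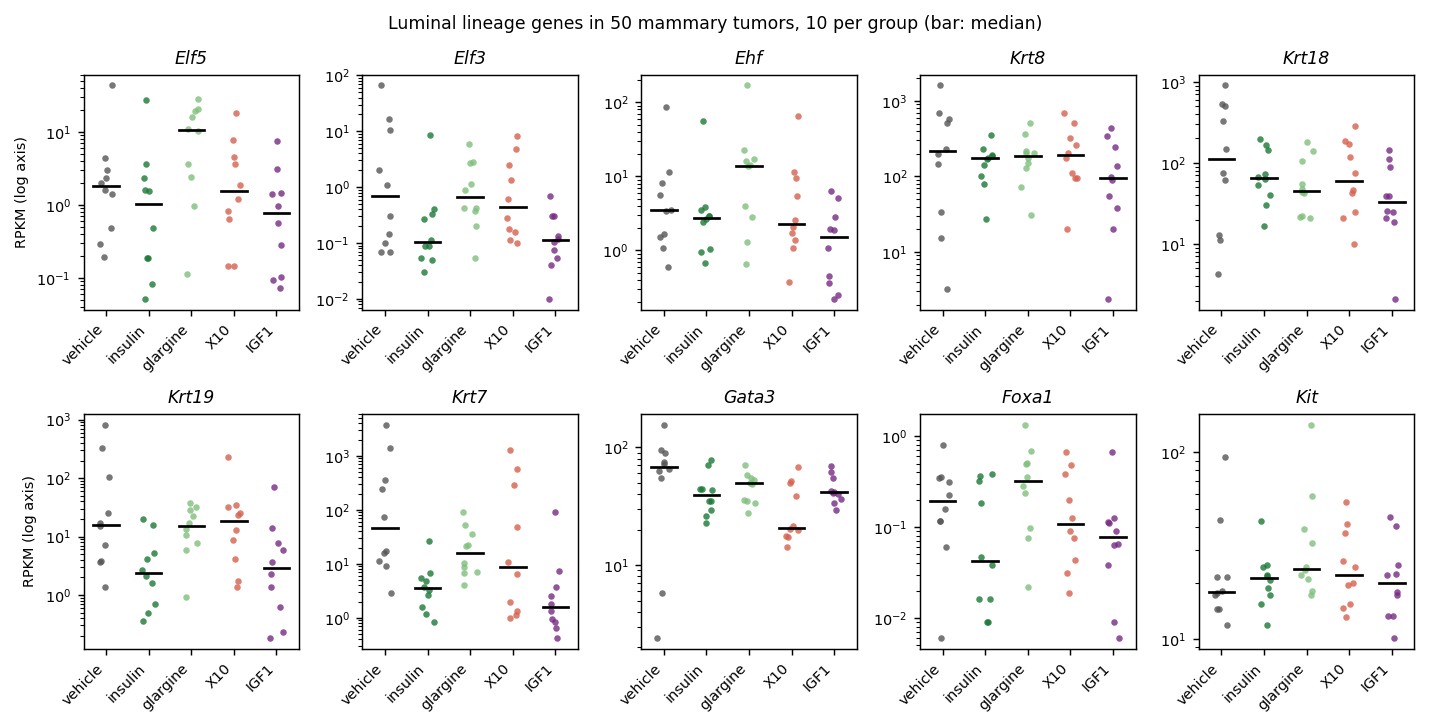
RPKM of each of the 10 genes (log axis) in the 10 tumors of every group, 1 point per tumor, with a bar at the median. The groups overlap for every gene. The vehicle tumors spread from 2.93 to 3810.1 RPKM for Krt7 and the insulin tumors from 0.841 to 26.5 RPKM.

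Each group was compared with the others by limma on log2(RPKM + 0.5), which answers whether chronic treatment with a ligand went with another luminal level. Foxa1 was under the filter of a mean of 0.5 RPKM, so 9 of the 10 genes were tested. With insulin against vehicle, 0 of the 9 had an adjusted p under 0.05 in limma, and 3 (Krt7, Krt19 and Elf3) had an unadjusted p under 0.05. Of all tested genes 0% were called, and 11.1% had an unadjusted p under 0.05. All 9 were lower, the median log2 fold change being -0.46 against 0.03 over all tested genes. With glargine against vehicle 0 of 9 were called, against 0% of all genes, and 1 (Elf5) had an unadjusted p under 0.05, against 6.23%. Of the 9, 5 were higher, with a median of 0.03 against 0.02 over all genes. With X10 against vehicle 0 of 9 were called, against 0.0657% of all genes, and 0 had an unadjusted p under 0.05, against 11%. Here 7 of 9 were lower, with a median of -0.54 against -0.03 over all genes.

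With IGF1 against vehicle 0 of 9 were called in limma and 3 (Krt7, Krt19 and Elf3) had an unadjusted p under 0.05, against 0.00598% of all genes called and 8.84% unadjusted. All 9 were again lower, and their median was -1.36 on the log2 scale against 0.02 over all genes. These 4 comparisons share the vehicle tumors, so their signs are not independent. Nor, in any comparison, are the signs of members whose levels were correlated across tumors. The pooled X10 and IGF1 tumors against the other 30 had 0 of 9 called, against 0.155% of all genes. There 0 had an unadjusted p under 0.05, against 1764 of the 16733 genes. All 9 were lower, with a median of -0.55 against -0.02 over all genes. The test for any difference among the 5 groups called 0 of 9, against 0.102% of all genes, and 4 (Krt7, Krt19, Elf5 and Ehf) had an unadjusted p under 0.05, against 13.1%. The ranges of the groups overlapped for every member in every comparison.

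Between ligands, glargine against insulin called 0 of 9 members, against 0% of all genes, and 2 had an unadjusted p under 0.05, against 3.96% of all genes. In that comparison 8 of the 9 were higher with glargine, with a median log2 fold change of 0.80 against -0.007 over all tested genes. X10 against insulin called 0 of 9, against 0.102% of all genes, with 2 unadjusted, against 11.3%. IGF1 against insulin called 0 of 9, against 0.00598%, with 0 unadjusted, against 7.3%. X10 against glargine called 0 of 9, against 1.78% of all genes, with 1 unadjusted, against 11.6%. IGF1 against glargine called 0 of 9, against 0% of all genes, with 3 unadjusted, against 6.98%. All 9 were lower with IGF1, with a median of -1.15 against 0.003 over all genes. IGF1 against X10 called 0 of 9, against 0%, with 2 unadjusted, against 11.7%. There 8 of the 9 were lower with IGF1, with a median of -1.11 against 0.05 over all genes.

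**Figure D3:**
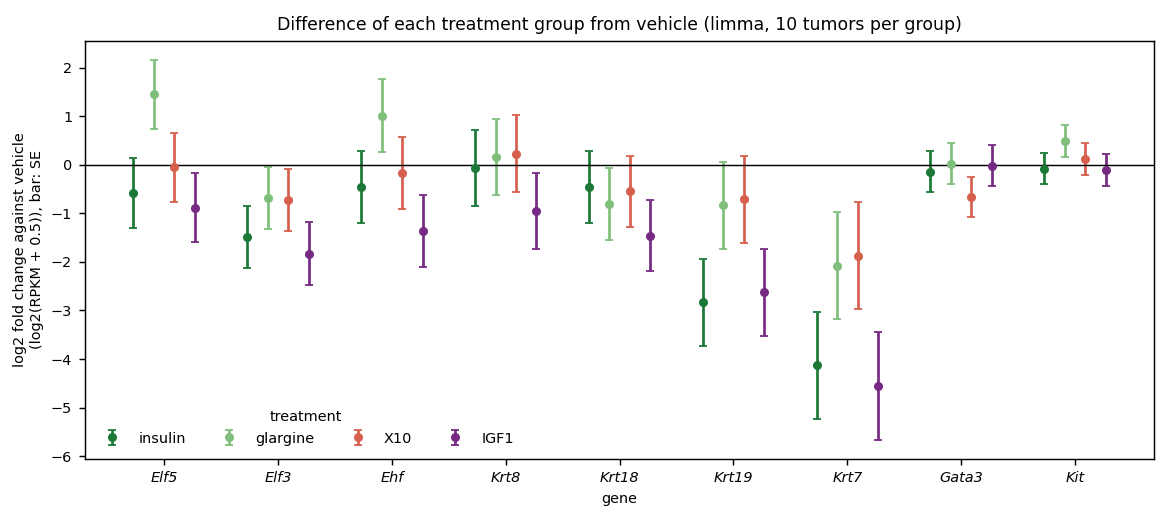
Log2 fold change of each treatment group against vehicle on the log2(RPKM + 0.5) scale for the 9 tested genes, with the limma SE as the bar and 10 tumors per group. Krt7 lies lowest with IGF1 (-4.55) and insulin (-4.13), while Gata3 and Kit stay between -0.66 and 0.49. No difference passed the adjusted threshold.

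The ETS factors came first by role. Elf5, the alveolar factor, had a lowest, median and highest value of 0.197, 1.81 and 43.8 RPKM in vehicle tumors, 0.052, 1.03 and 27.9 in insulin tumors, and 0.114, 10.7 and 28.7 in glargine tumors. In X10 tumors these were 0.145, 1.55 and 18.2 RPKM, and in IGF1 tumors 0.073, 0.772 and 7.48 RPKM. The glargine median was the highest, and 8 of 10 glargine tumors were above the vehicle median, yet the ranges overlapped. The log2 fold change of glargine against vehicle was 1.45 ± 0.71 (SE, limma, p = 0.0473, adjusted p = 0.789). Against glargine, Elf5 was at -2.33 ± 0.71 with IGF1 (p = 0.00199, adjusted p = 0.555), all 10 IGF1 tumors being under the glargine median, and at -1.51 ± 0.71 with X10 (adjusted p = 0.395). Glargine was 2.03 ± 0.71 above insulin (p = 0.00645, adjusted p = 0.990). For the prolactin receptor Prlr, which acts upstream of Elf5 in alveolar cells, glargine tumors had a median of 4.85 RPKM and IGF1 tumors 0.853 RPKM, a log2 difference of IGF1 from glargine of -1.79 (adjusted p = 0.517).

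Ehf, an ETS factor of many epithelia, ran from 0.592 through 3.48 to 85.2 RPKM in vehicle tumors, from 0.679 through 2.77 to 55.5 in insulin tumors, and from 0.654 through 13.9 to 170 in glargine tumors. In X10 tumors it ran from 0.370 through 2.30 to 65.2 RPKM, and in IGF1 tumors from 0.222 through 1.5 to 6.42 RPKM. As for Elf5, the glargine median was the highest and the IGF1 median the lowest, with overlapping ranges. Ehf was at 1.02 ± 0.75 with glargine against vehicle (adjusted p = 0.842), and at 0.56 without glargine_63. It was at -2.38 ± 0.75 with IGF1 against glargine (p = 0.00255, adjusted p = 0.558). The value with IGF1 against vehicle was -1.36 ± 0.75 (adjusted p = 0.637), and -0.90 without vehicle_182.

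Elf3, an epithelial ETS factor, was scarce in most tumors and high in a few. Its lowest, median and highest values were 0.070, 0.705 and 66.7 RPKM in vehicle tumors, 0.030, 0.103 and 8.51 in insulin tumors and 0.055, 0.668 and 5.84 in glargine tumors, with 0.1, 0.448 and 8.12 in X10 and 0.010, 0.113 and 0.680 in IGF1 tumors. All 10 IGF1 tumors were under the vehicle median, while the 5 lower vehicle tumors lay in the range of the IGF1 tumors. The log2 fold change was -1.83 ± 0.64 with IGF1 (p = 0.00655, adjusted p = 0.376) and -1.48 ± 0.64 with insulin (p = 0.0256, adjusted p = 0.388). Without vehicle_174 the insulin value was -0.95. Elf3 overlaps the antisense gene Gm26642, and the default options of HTSeq, which the authors used, count reads by strand.

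Gata3 had the smallest SD of the tested transcription factors, 0.964 on the log2(RPKM + 0.5) scale. Vehicle tumors had a lowest, median and highest value of 2.40, 68.4 and 156 RPKM, insulin tumors 22.8, 39.1 and 78.4, and glargine tumors 27.7, 49.3 and 70.8. X10 tumors had 14.2, 20.8 and 67.5 RPKM and IGF1 tumors 29.6, 41.4 and 69.4 RPKM. The X10 median was the lowest, and the 2 lowest tumors of all, vehicle_197 (2.40 RPKM) and vehicle_189 (5.82 RPKM), were in the group with the highest median. X10 against vehicle was at -0.66 ± 0.42 (adjusted p = 0.571), and at -1.10 without vehicle_197 (adjusted p = 0.170). Gata3 overlaps 4930412O13Rik and Gm13256 on the opposite strand and 9230102O04Rik on its own. The overlap is of whole gene ranges, and whether exons are shared with 9230102O04Rik was not examined.

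Foxa1 was at 1.35 RPKM at most, in glargine_64, and under 1 RPKM in the other 49 tumors. The group medians were 0.193 RPKM with vehicle, 0.0425 with insulin, 0.318 with glargine, 0.108 with X10 and 0.0785 with IGF1, all groups overlapping. With the filter on low values removed, IGF1 was 0.47 ± 0.18 lower than glargine on the log2 scale, with 9 of 10 IGF1 tumors under the glargine median (p = 0.0122, adjusted p = 0.789). Insulin, from which glargine differed by 0.45 ± 0.18 (adjusted p = 1.00), had 9 of 10 glargine tumors above its median. These values rest on few reads.

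The keratins of simple epithelium held the largest differences. Krt7 had a lowest, median and highest value of 2.93, 46.1 and 3810.1 RPKM in vehicle tumors, 0.841, 3.50 and 26.5 in insulin tumors and 4.02, 16.0 and 92.8 in glargine tumors. X10 tumors had 0.976, 8.74 and 1309.8 RPKM, and IGF1 tumors 0.420, 1.58 and 90.9 RPKM. All 10 insulin tumors and 9 of 10 IGF1 tumors were under the vehicle median, but 5 vehicle tumors, between 2.93 and 17.6 RPKM, lay within the insulin range.

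The log2 fold change of Krt7 was -4.55 ± 1.11 with IGF1 against vehicle (limma, p = 0.000154, adjusted p = 0.213) and -4.13 ± 1.11 with insulin (p = 0.000508, adjusted p = 0.202). It was -2.07 ± 1.11 with glargine (adjusted p = 0.804) and -1.87 ± 1.11 with X10 (adjusted p = 0.536), and over the 5 groups the test gave p = 0.000900 (adjusted p = 0.135). Leaving out 1 tumor at a time moved the IGF1 value between -5.09 and -3.92, the latter without vehicle_174, with an adjusted p of at least 0.0898, and the X10 value was -1.24 without vehicle_174. Between ligands Krt7 was at -2.68 ± 1.11 with IGF1 against X10 (p = 0.0194, adjusted p = 0.371), and at 2.26 ± 1.11 with X10 against insulin (p = 0.0469, adjusted p = 0.429). Krt7 overlaps the antisense gene Gm671, on the other strand.

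Krt19, a keratin of luminal ductal cells, ran from 1.36 through 16.0 to 826 RPKM in vehicle tumors, from 0.352 through 2.39 to 19.7 in insulin tumors and from 0.923 through 15.2 to 38.0 in glargine tumors. In X10 tumors it ran from 1.37 through 18.4 to 232 RPKM and in IGF1 tumors from 0.182 through 2.94 to 71.2 RPKM. The vehicle, glargine and X10 medians were near each other, and in both the insulin and IGF1 groups 9 of 10 tumors were under the vehicle median. The log2 fold change was -2.83 ± 0.90 with insulin (p = 0.00272, adjusted p = 0.301) and -2.63 ± 0.90 with IGF1 (p = 0.00519, adjusted p = 0.362). Between ligands it was 2.13 ± 0.90 with X10 against insulin (p = 0.0218, adjusted p = 0.330), 2.00 ± 0.90 with glargine against insulin (adjusted p = 0.990) and -1.92 ± 0.90 with IGF1 against X10 (adjusted p = 0.404).

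Krt8 and Krt18, the filament pair, differed less between groups and most within the vehicle group. Krt8 ran from 3.19 through 216 to 1616 RPKM in vehicle tumors, from 27.2 through 173.9 to 359.5 in insulin tumors, from 30.5 through 188 to 512 in glargine tumors, from 20.2 through 191 to 687 in X10 tumors and from 2.39 through 94.1 to 444 in IGF1 tumors. Krt18 ran from 4.26 through 111.03 to 907 RPKM with vehicle and from 2.10 through 32.5 to 142.8 RPKM with IGF1, the other 3 medians lying between 45.6 and 65.1 RPKM. The lowest tumor for both was IGF1_158 and the highest vehicle_174. With IGF1 against vehicle, Krt18 was at -1.46 ± 0.74 (p = 0.0532, adjusted p = 0.568), with 9 of 10 tumors under the vehicle median, and Krt8 at -0.95 ± 0.79 (adjusted p = 0.808). For Krt8 this was -1.55 without vehicle_197 and -0.43 without IGF1_158. The difference of the Krt8 level between insulin and vehicle tumors was -0.06 ± 0.79 on the log2 scale.

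Kit, the receptor, was present in every tumor, at 10.1 RPKM or above. The medians were 17.8 RPKM with vehicle, 21.2 with insulin, 23.8 with glargine, 22.1 with X10 and 19.9 with IGF1, and the ranges of the groups overlapped. Glargine_63 (141 RPKM) and vehicle_182 (94.7 RPKM) stood above the rest, and they also had the highest Ehf. The glargine value against vehicle was 0.49 ± 0.32 (adjusted p = 0.827), 9 of 10 glargine tumors being above the vehicle median, but 0.25 without glargine_63. The other treatments were between -0.11 and 0.12.

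The spread between tumors of a group was tested as well, on the absolute deviation of log2(RPKM + 0.5) from the group median. The mean deviation of Krt7 was 2.83 in the vehicle group and 0.887 in the insulin group, and that of Krt18 was 2.17 and 0.825. For Elf3 it was 1.90 with vehicle and 0.252 with IGF1, a difference of -1.65 ± 0.48 (limma, p = 0.00113, adjusted p = 0.387). Elf3 had medians of 0.113 RPKM with IGF1 and 0.103 with insulin, below the added 0.5, which narrows the spread on this scale. With insulin against vehicle 0 of 9 members passed the adjusted threshold, against 0.012% of all genes, and 4 (Krt18, Elf3, Krt7 and Krt8) had an unadjusted p under 0.05, against 11.7%. With glargine 0 of 9 passed, against 0.00598% of all genes, with 5 unadjusted, against 7.86%. With X10 0 of 9 passed, against 0%, with 0 unadjusted, against 6.75%, and with IGF1 0 of 9 passed, against 0%, with 4 unadjusted, against 7.17%. The test of spread over all groups called 0 of 9, against 0.00598%, with 2 unadjusted, against 6.32%. Every one of the unadjusted differences between a treatment and vehicle was a smaller spread in the treated tumors, and all of them share the vehicle group. Vehicle_174 was its highest tumor for Krt7, Krt8, Krt18 and Elf3, and vehicle_197 its lowest for Krt8, Krt18 and Gata3.

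Correlation between genes over the 50 tumors was tested for the 45 pairs of members and 60 pairs of a member with another marker, with 100000 permutations and adjustment over all of these. Of the 45 pairs of members 25 had an adjusted p under 0.05 by Spearman's rho and 23 by Pearson's r. The smallest rho that passed was 0.335, and 13.1% of all pairs of tested genes had a rho at least that far from 0. Elf5, Ehf, Elf3, Krt19, Krt7 and Foxa1 formed a block in which all 15 pairs passed by rho, with rho between 0.528 and 0.892. The block was picked from these same correlations, so that count does not test it. By r 13 passed, all but Foxa1 with Elf3 (adjusted p = 0.267) and with Krt7 (adjusted p = 0.0636). Krt8 and Krt18 formed a second pair, with rho of 0.810 and r of 0.846. Of the 12 pairs between Krt8 or Krt18 and the block 5 passed, with rho between 0.0103 and 0.377, and without the 2 tumors farthest from the median 0 of 12 did, the rho of those 5 then lying between 0.268 and 0.328. With values centred within the treatment group, 13 of the 15 pairs of the block passed, the same pairs of Foxa1 being lost, and 3 of the 12.

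Elf5 with Ehf had the highest rho, 0.892 (r = 0.917, both p = 1e-05, the smallest the permutations can give, adjusted p = 5.25e-05). It was 0.862 with values centred by group, and without the 2 tumors farthest from the Elf5 median rho was 0.879 and r 0.904. Within groups of 10 it was between 0.571 (insulin) and 0.912 (X10). Elf3 with Krt7 had a rho of 0.814 (r = 0.862, and 0.830 without the 2 tumors) and Krt19 with Krt7 0.791 (r = 0.837, and 0.774), each with an adjusted p of 5.25e-05. For Krt8 with Krt18, r was 0.793 without the 2 tumors. The log2 ratio of Krt8 to Krt18 had an SD of 0.984, where log2 Krt8 alone had 1.84 and log2 Krt18 1.74. Tumors thus differed in the level of the filament pair more than in its balance, while the ratio of Krt8 to Krt7 had an SD of 2.95.

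Gata3 passed with 1 of the 9 other members, Foxa1 (rho = 0.348, adjusted p = 0.0375, r = 0.288 with adjusted p = 0.0987), and without the 2 tumors farthest from its median that rho was 0.316 (adjusted p = 0.0827). Kit passed with Elf5 (rho = 0.489, adjusted p = 0.00169, r = 0.645), Ehf (rho = 0.487, adjusted p = 0.00152, r = 0.718) and Elf3 (rho = 0.416, adjusted p = 0.00938, r = 0.464), and with none of the keratins. These 3 relations of Kit also passed with values centred by group and without the 2 tumors farthest from the median.

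**Figure D4:**
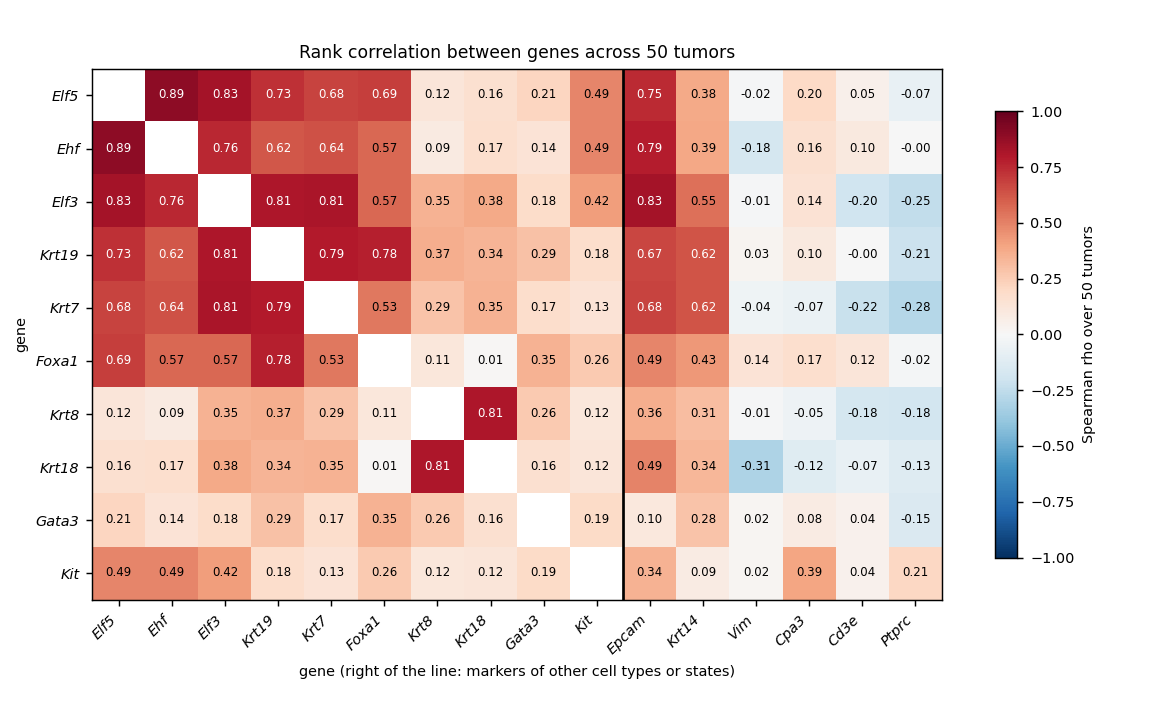
Spearman's rho over 50 tumors for each pair of the 10 members, and right of the line for each member with 6 markers of other cell types or states, coloured from blue (-1) to red (1). The block from Elf5 to Foxa1 holds values between 0.53 and 0.89, Krt8 and Krt18 pair at 0.81, and the rows of Gata3 and Kit are pale.

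**Figure D5:**
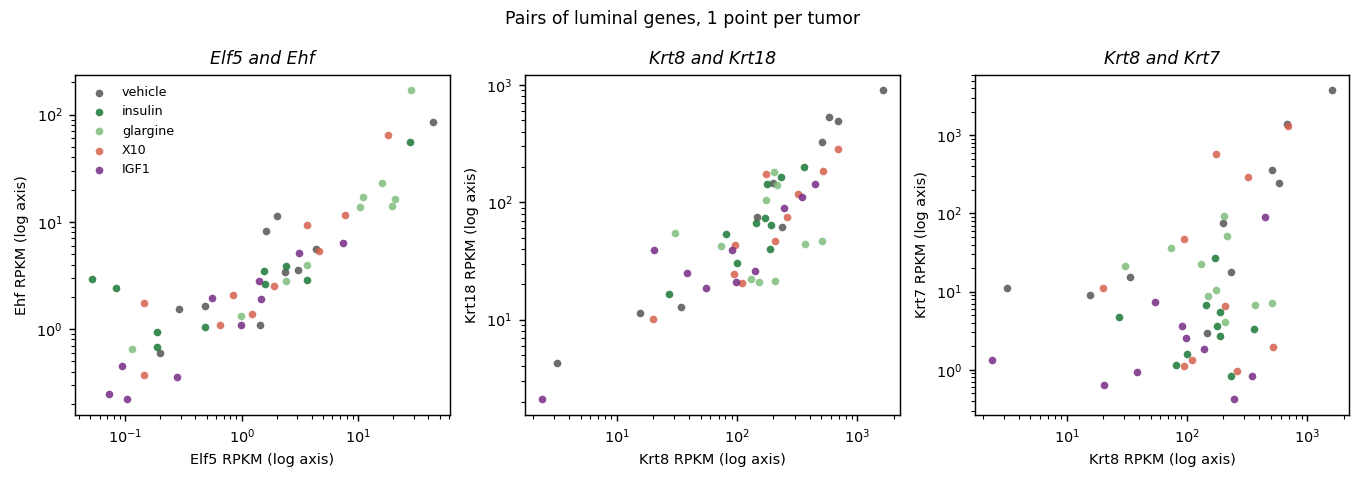
RPKM of 2 genes in each of the 50 tumors, both axes logarithmic, coloured by treatment group, for Elf5 with Ehf, Krt8 with Krt18, and Krt8 with Krt7. The first 2 pairs follow a line (rho 0.892 and 0.810), while Krt7 is scattered at a given Krt8 (rho 0.287).

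Markers of other cells were measured beside these genes. Epcam, the general epithelial marker, passed with 9 of the 10 members, with rho up to 0.833 for Elf3, the exception being Gata3 (rho = 0.105). Of all tested genes 9.89% had a rho with Epcam at least as far from 0 as 0.335. With values centred by group 7 passed, Krt8 and Foxa1 being lost, and 7 without the 2 tumors farthest from the median, Krt8 and Kit being lost. The basal keratin Krt14 passed with 7 of 10, with rho of 0.625 for both Krt7 and Krt19, and with 4 of 10 without the 2 tumors, Elf5, Ehf and Krt18 being lost, where 11.2% of all tested genes had a rho with Krt14 as far from 0 as 0.335. Vim passed with 0 of 10 by rho and 4 by r, and the lowest rho was -0.308 with Krt18, where 10.2% of all tested genes had a rho with Vim as far from 0 as 0.335. With values centred within the treatment group 2 passed by rho, Ehf (-0.376, adjusted p = 0.0228) and Elf3 (-0.363, adjusted p = 0.0274). The T cell gene Cd3e and the leukocyte gene Ptprc passed with 0 of 10. Of all tested genes 18.6% had a rho with Cd3e as far from 0 as 0.335, and 21.8% with Ptprc. The mast cell protease Cpa3 passed with 1 of 10, Kit (rho = 0.393, adjusted p = 0.0175, r = 0.388), and without the 2 tumors farthest from the Kit median rho was 0.410 and r 0.415. A rho with Cpa3 as far from 0 as 0.335 was found for 2.65% of all tested genes. The summed RPKM of 10 mast cell genes, 8 of them above the filter, had a median of 40.9 in vehicle tumors and 123 in IGF1 tumors, where the Kit medians were 17.8 and 19.9 RPKM; its part in the Kit values was not tested.

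Of the 12 genes of the general epithelial list 11 were tested, and 0 passed the adjusted threshold in any comparison, while 7 had an unadjusted p under 0.05 over the 5 groups, against 13.1% of all genes. Against vehicle 10 were lower with insulin (median log2 fold change -1.47), 11 with glargine (-0.35), 8 with X10 (-0.49) and 11 with IGF1 (-1.83). Their summed RPKM ran from 9.9 through 134 to 2367 in vehicle tumors, from 22.1 through 71.7 to 205 in insulin tumors and from 11.4 through 68.8 to 119 in IGF1 tumors. For Epcam IGF1 against vehicle was at -2.27 ± 0.83 (p = 0.00876, adjusted p = 0.394), and for Krt14 at -2.65 ± 1.02 (p = 0.0126, adjusted p = 0.424). The part of epithelial content in the keratin differences was not tested.

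The genes with the most similar pattern over the 50 tumors, 3 for each member by Spearman's rho among the tested genes, were described without a test. For Elf5 these were BC006965 (rho = 0.944), Fxyd3 (0.921) and Wfdc18 (0.916), and for Ehf Tnk1 (0.863), BC006965 (0.862) and Fxyd3 (0.860). For Elf3 they were Esrp1 (0.947), an epithelial splicing regulator, the tight junction gene Cldn7 (0.938) and Ripk4 (0.901). Krt7 was most like Kcnk1 (0.876), Cldn7 (0.854) and Grb7 (0.849), and Krt19 most like Cblc (0.851), Esrp1 (0.850) and Serpinb5 (0.825). The values were lower for Krt18 (Chmp4c 0.782, Cgn 0.751, Slc25a48 0.736) and Krt8 (Slc25a48 0.663, Anxa3 0.643, Fam46b 0.618). Gata3 was most like 4930412O13Rik (0.717), which overlaps it on the opposite strand, then Gm13350 (0.559) and Lsm7 (0.558). Foxa1 was most like Atp6v1b1 (0.777), Prlr (0.764) and Krt5 (0.756), and Kit most like Tbc1d30 (0.707), Gm12750 (0.643) and Grhl1 (0.624).

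Other genes of the mammary lineages were read from the other gene lists. Of 12 luminal progenitor and alveolar genes, all tested, 0 passed the adjusted threshold in any comparison (limma), 5 had an unadjusted p under 0.05 over the 5 groups, against 13.1% of all genes, and 8 were lower with insulin, 4 with glargine, 6 with X10 and 7 with IGF1 than with vehicle. The lowest p-values of the list over the 5 groups were those of the milk protein genes Lalba (p = 0.00499, adjusted p = 0.204) and Csn2 (p = 0.00580, adjusted p = 0.216). Csn2 had a median of 23.3 RPKM in glargine tumors, 1.55 in vehicle, 0.116 in insulin, 4.03 in X10 and 2.54 in IGF1 tumors, and the glargine value against vehicle was 3.03 ± 0.95 (p = 0.00243, adjusted p = 0.773). Of 12 hormone-sensing luminal genes 10 were tested, 0 passed, 2 did so unadjusted, against the same 13.1%, and 6 were lower with insulin, 3 with glargine, 6 with X10 and 8 with IGF1. Of 12 basal genes 11 were tested, 0 passed, 1 (Lgr5) did so unadjusted, against the same 13.1%, and 6 were lower with insulin, 5 with glargine, 6 with X10 and 8 with IGF1.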

How the data were processed

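Poly-A RNA of 50 tumors, 10 per treatment group, had been sequenced on the Ion Proton. The authors mapped reads to the mouse genome GRCm38 by TopHat2 2.0.10 and, for unmapped ones, Bowtie2, and counted them with HTSeq 0.6.1 at its default options, which use strand. They deposited RPKM values, which are scaled to library size and to the length of the gene. For an RPKM table the study names DEXSeq, and whether the deposited values rest on the HTSeq counts is not stated. DESeq2, which the authors used for their own comparisons, was not used here, since the table holds no counts. Groups were taken from the sample labels.

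RPKM values were tested as log2(RPKM + 0.5) with limma 3.58.1 (R 4.3.3), all 5 groups in 1 fit with an intensity trend, over the 16733 genes with a mean of at least 0.5 RPKM, and p-values were adjusted over all of these (Benjamini-Hochberg). Fold changes on this scale understate those of low genes. Spread was tested in the same way. Where values are whole multiples of a step, gene length, reads and library size were recovered, at least 92.7% of the low values of each tumor being whole. All columns of the table belonged to the 50 tumors.

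In simulated data for IGF1 against vehicle (16733 genes), 78% of genes given a log2 difference of 1 were found, and 94% given 2. That test of level made 10 false calls in all. For spread 57.5% of genes with 3 times the SD were found, with 6 false calls. These shares are for genes at large (median SD 0.419) and do not hold for the members, 7 of which had an SD between 1.57 and 2.98. Correlations used two-sided permutation tests (Python 3.11.15, scipy 1.17.1, numpy 2.4.6, pandas 2.3.3, matplotlib 3.10.9). Gene positions and transcript lengths were from GENCODE M21. Differences between tumors are those between mice, with 1 tumor each.

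The 10 genes, the other lists and the tests were chosen with earlier results of these data known. Named genes are the 10, the 3 of each other list with the smallest p over the 5 groups, the reference markers and the 3 genes most like each of the 10. Alternatives were pseudocounts of 0.1 and 1, no filter or a mean of at least 5 RPKM, quantile normalization, upper quartile scaling, no trend, only the groups compared, each tumor left out in turn, and, added after seeing the data, library size as a covariate and levels per length of the longest coding transcript.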

Additional observations from a re-analysis of the deposited data

Results flagged for a closer look

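In each group of 10 tumors the gap of the highest or lowest tumor to its nearest neighbour was compared with the range of the group on the log2(RPKM + 0.5) scale (Dixon's criterion). Of 50 combinations of gene and group, 7 held a tumor far from the others, and chance flags about 1 in 20 groups. Insulin_13 was far above the other insulin tumors for all 3 ETS factors, with Elf5 at 27.9 RPKM, Elf3 at 8.51 RPKM and Ehf at 55.5 RPKM. Vehicle_182 was far above the other vehicle tumors for Elf5 (43.8 RPKM). IGF1_145 was far above the other IGF1 tumors for Krt7 (90.9 RPKM) and for Foxa1 (0.674 RPKM). IGF1_158 was far below the other IGF1 tumors for Krt18 (2.10 RPKM). Without insulin_13 the value of Elf3 with insulin against vehicle was -1.86 in place of -1.48 (adjusted p = 0.199), and without IGF1_145 that of Krt7 with IGF1 was -5.09.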

How the results depend on the processing

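In limma, 0 of the 9 tested members passed the adjusted threshold in any comparison of level or spread under any alternative run or with any 1 tumor left out, Elf3 being under the filter of 5 RPKM and so not tested there. The smallest adjusted p over these was 0.0672, for Krt7 over the 5 groups. Signs of level differences were followed for the 9 tested members against vehicle and in the pooled comparison. Between ligands they were followed only where the unadjusted p was under 0.05. Of all these differences, 5 changed sign under another setting. With quantile normalization Krt8 with insulin against vehicle was 0.0057. With library size as a covariate Krt8 was -0.20 with glargine and -0.28 with X10, and Gata3 -0.0060 with glargine. With a pseudocount of 0.1 Gata3 with IGF1 was 0.011. The cause was not tested.

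With 1 tumor left out, the sign changed for 12 of the followed differences in level, all against vehicle. Small differences between ligands were not among those followed. The ranges were -0.38 to 0.41 for Elf5 with X10, -0.90 to 0.0032 for Ehf with insulin, -0.60 to 0.30 for Ehf with X10, -0.65 to 0.32 for Krt8 with insulin, -0.43 to 0.54 for Krt8 with glargine and -0.36 to 0.62 for Krt8 with X10. They were -0.58 to 0.060 for Gata3 with insulin, -0.41 to 0.23 with glargine and -0.45 to 0.19 with IGF1, and -0.19 to 0.15 for Kit with insulin, -0.011 to 0.35 with X10 and -0.23 to 0.12 with IGF1. The ends came mostly from vehicle_174, vehicle_182, vehicle_187 and vehicle_197. The spread of Krt7 with X10 was between -0.27 and 0.77. The counts of members higher or lower than with vehicle rest, for every treatment, in part on these small differences.

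Of the relations past the threshold, 14 lost it under at least 1 alternative, each with rho of the same sign. Over all genes, the pooled X10 and IGF1 comparison called 26 genes, and between 10 and 51 under other settings and up to 131 with 1 tumor (IGF1_135) left out. The X10 against glargine count of 298 was between 142 and 364, and between 76 and 577 with 1 tumor left out, the latter without X10_107. X10 against vehicle called 11 genes, with 1 to 24 under other settings, X10 against insulin 17, with 5 to 31 and up to 95 without X10_107, and any group 17, with 0 to 22 and up to 110 without IGF1_124. IGF1 against vehicle called 1 gene (0 to 3 with 1 tumor left out) and IGF1 against X10 0 (up to 8 without IGF1_124). The tests of spread called between 0 and 2 genes, and up to 20 under other settings or with 1 tumor left out.

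No paired analysis was possible because the mouse numbers in the labels are not shared between groups. Elf5, Elf3 and Foxa1, with under 10 reads in 11, 17 and 18 tumors, are limited by depth, and insulin against vehicle, with 0 genes called, had 3 at most with 1 tumor left out.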

Other observations

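Cell types other than mammary epithelium were read from the lists as well, and 0 of their genes passed the adjusted threshold of limma in any comparison. Over all tested genes the median log2 fold change against vehicle was 0.03 with insulin, 0.02 with glargine, -0.03 with X10 and 0.02 with IGF1. Of 12 mesenchymal genes, all tested, 3 had an unadjusted p under 0.05 over the 5 groups, against 13.1% of all genes, and 11 were higher than with vehicle both with glargine and with insulin, 6 with X10 and 7 with IGF1. Vim was higher with glargine by 0.58 ± 0.21 on the log2 scale (p = 0.00771, adjusted p = 0.789). Of 10 T cell genes, all were higher with insulin than with vehicle, with a median log2 fold change of 0.58, 9 were with X10 (0.15), 5 with IGF1 (0.01) and 4 with glargine (-0.02). Of 8 tested mast cell genes 7 were higher with IGF1 (median 1.24), 7 with X10 (1.00), 7 with insulin (0.29) and 6 with glargine (0.90). For neither list did a gene have an unadjusted p under 0.05 over the 5 groups, nor did one of the leukocyte, fibroblast, endothelial and skeletal muscle lists. Of 6 adipocyte genes 1 did (Pparg, p = 0.0286, adjusted p = 0.332), and all 6 were higher with glargine, with a median of 0.96, 4 with X10, 1 with insulin and 1 with IGF1. Of the skin keratinocyte list 1 gene was above the filter, Krt10 (p = 0.0218, adjusted p = 0.314), and the summed level of the list was 4.8 RPKM at most.

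X10_105 held the highest levels of the basal genes Krt14 (2587 RPKM), Krt5 (1036 RPKM) and Trp63 (29.1 RPKM) of all tumors, where the medians over the 50 tumors were 9.10, 0.813 and 0.434 RPKM. The same tumor had 65.2 RPKM of Ehf and 577 RPKM of Krt7.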
